A study of Mus musculus with 4 samples.

Results

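Complement and the coagulation factors are plasma proteins made largely by the liver, and 41 of their genes were followed here through the nuclei of mouse liver to find which cells hold their RNA. The 41 genes were listed by name among the 32285 mouse genes counted, and all of them were found. The list was made with earlier results of these data known. They comprise C1q, the lectin pathway, the components around C3 and C4, the terminal pathway, complement regulators, the clotting factors and their cofactors, the contact system, inhibitors, fibrinolysis and Ahsg, which encodes the plasma protein fetuin-A. For each gene the cell type with the highest level was named, and so was its place between the central vein and the portal tract among hepatocytes.

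Liver nuclei were profiled by single-nucleus RNA-seq, which counts unique molecular identifiers (UMIs), 1 for each captured RNA molecule. There were 4 libraries from frozen liver of young adult Bl/6 mice (male by the study's general methods; how many animals gave each library is not given in the sources used here), and each library was a group of its own: chow diet (CD) with control vector, CD with oncogene, low-protein diet (LPD) with control vector and LPD with oncogene (spelled "concogene" in the labels). Values given as 4 in a row follow this order, CD before LPD and control before oncogene. Both diets were given from 1 week before until 2 weeks after a hydrodynamic tail vein injection, in which the oncogene groups received human c-MET and a truncated β-catenin with the Sleeping Beauty transposase that integrates them, mostly in hepatocytes. By the study's methods, mice were fasted for some hours beforehand, and LPD replaced protein with carbohydrate. UMIs of the human transgenes did not match the labels on CD: the library labelled CD control held 100, the library labelled CD oncogene 0, the library labelled LPD control 0 and the library labelled LPD oncogene 6. Glul, a pericentral gene and a known target of β-catenin, was at 1020, 161, 352 and 533 CPM in the most pericentral hepatocytes of the 4 libraries. Directions between control and oncogene are therefore given as labelled, and on CD also with the labels exchanged.

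Complement is a cascade of proteases that is started by C1q on antibody, by lectins such as the mannose-binding lectins on sugars, or by the alternative route through factor B. The routes meet at C3, and the terminal components C5 (encoded by Hc), C6, C8 and C9 then assemble a pore in the target membrane. Coagulation runs through proteases that hepatocytes modify with vitamin K, assisted by the cofactors factor V and factor VIII, while von Willebrand factor carries factor VIII in plasma, antithrombin and proteins C and S restrain clotting, and plasmin dissolves the clot.

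Nuclei were assigned to cell types by marker genes, none of which is among the 41. A total of 42877 nuclei passed the filter of the study and 37418 were assigned, of which 31345 were hepatocytes, and 8 other cell types had at least 20 nuclei in every library: sinusoidal endothelial, vascular endothelial, Kupffer, stellate, cholangiocyte, T or NK, B and mesothelial. Every marker of these 8 lists was counted in its own cell type in at least 1 library. Monocyte or dendritic, plasmacytoid dendritic and neutrophil nuclei numbered 83, 62 and 5 over all libraries. They did not reach 20 nuclei in every library and were left out of the ranking of cell types. Levels are counts per 1000000 (CPM) of the UMIs summed over the nuclei of a cell type in a library. The libraries held between 23172463 and 62869348 UMIs. The CD libraries were deeper than the LPD libraries, with medians of 3807, 3294, 1962 and 1762 UMIs per nucleus in the stated order. The median mitochondrial share was 2.42%, 0.983%, 0.09997% and 0.127%, so that diet, depth and mitochondrial share cannot be told apart. Any pair of libraries shared 18 to 40 barcodes.

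Positions of the genes were taken from GENCODE vM21 on GRCm38. C1qa, C1qb and C1qc, the chains of C1q, lie on 1 strand within 18.7 kb of chromosome 4 (136880129 to 136898803). C6 (chromosome 15, 4727175 to 4814967) and C9 (chromosome 15, 6445327 to 6498751) are 1630 kb apart on the same strand. The stretches before the start of C1qb, C1qc, C6 and C9 are shown. The C1q chains shared the cell type of their highest level, and C6 and C9 had opposite zones among hepatocytes. The sequences are from RefSeq (GRCm38.p6), which held a promoter for 30 of the 41 genes but not for C1qa. They run 5′ to 3′ on the strand of the gene. Only bases before the start in both annotations are printed. Capitals mark matches, on either strand, to GAGGAA, the core bound by the myeloid factor PU.1, or to TTGCNNAA, a form of the C/EBP motif.
C1qb, chr4:136886201-136886450, minus strand: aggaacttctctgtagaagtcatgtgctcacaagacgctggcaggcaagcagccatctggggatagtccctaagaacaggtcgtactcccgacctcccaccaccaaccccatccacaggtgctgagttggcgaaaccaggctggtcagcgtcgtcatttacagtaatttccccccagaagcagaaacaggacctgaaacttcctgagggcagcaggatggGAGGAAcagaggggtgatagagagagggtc
C1qc, chr4:136893066-136893164, minus strand: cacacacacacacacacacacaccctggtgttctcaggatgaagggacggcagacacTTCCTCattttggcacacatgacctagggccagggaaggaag
C6, chr15:4726960-4727174, plus strand: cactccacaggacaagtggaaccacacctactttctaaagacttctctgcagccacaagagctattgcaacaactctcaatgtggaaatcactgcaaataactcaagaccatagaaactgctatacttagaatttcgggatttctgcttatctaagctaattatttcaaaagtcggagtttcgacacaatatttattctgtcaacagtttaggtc
C9, chr15:6445096-6445326, plus strand: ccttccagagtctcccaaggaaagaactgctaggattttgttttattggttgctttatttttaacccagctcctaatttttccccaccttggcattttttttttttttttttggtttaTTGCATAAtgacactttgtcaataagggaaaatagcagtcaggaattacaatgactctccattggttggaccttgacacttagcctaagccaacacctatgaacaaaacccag
In the 250 bases before the RefSeq start, GAGGAA occurred at 1 place each in C1qb and C1qc and in 3 of the 30 genes, against 23.3% of 32851 promoters of all genes. TTGCNNAA occurred in C9 and in 7 of the 30, against 9.56% of all promoters. GTTAAT, a partial HNF1 motif, occurred in 5 of the 30, against 6.43%, and in none of the sequences shown. The capitals do not overlap between motifs.

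Hepatocytes were the leading source of most of the 41 genes. The level was highest in hepatocytes in all 4 libraries for 18 genes, where 4.67% of the 14759 genes with at least 100 UMIs had this pattern. In another 9 genes hepatocytes led in 3 libraries. For 10 genes the highest level was outside hepatocytes in every library and in the same cell type each time, a pattern shown by 13.7% of all genes. A level is relative to the UMIs of its cell type and does not give the share of all counted RNA. In the library labelled CD control, hepatocytes held 47319 UMIs of C3, 35927 of C6, 10851 of Masp1 and 4019 of C2. The cell type with the highest level held 119, 262, 470 and 18. The last 4 genes, Cfb, Mbl2, Serpind1 and C8g, led in hepatocytes in 2 libraries or fewer.
The 18 were C8a, C8b, C9 and Hc of the terminal pathway, the lectin pathway genes Masp2 and Mbl1, the clotting factors F2, F5, F10, F11 and F12, the contact system genes Kng1 and Klkb1, Serpinc1, the fibrinolysis genes Plg, Serpinf2 and Cpb2, and Ahsg. In hepatocytes Ahsg was at 1269, 1818, 2117 and 2832 CPM, higher in both LPD than in both CD libraries. Steady levels across the libraries were seen for F2, at 257, 237, 223 and 236 CPM, and for Serpinf2, at 206, 235, 234 and 231 CPM.
Of the 9 genes that led in 3 libraries, the exception was the cholangiocyte gate for Cfi and F9 in the library labelled CD control, for C4bp in LPD control and for F7, F13b, Kng2 and Proc in LPD oncogene, and the mesothelial gate for C4b and Serping1 in LPD oncogene. In hepatocytes C4bp, which binds C4b and limits the convertase, was at 334, 259, 293 and 308 CPM, and Kng2 at 605, 588, 584 and 622 CPM. Of the 4 genes without a steady source, C8g was at 85.3, 73.9, 90.9 and 95.6 CPM in hepatocytes, Serpind1 at 92.9, 66.9, 68.1 and 55.2 CPM, and Cfb, the protease of the alternative route, at 158, 124, 120 and 130 CPM. The cell types that exceeded them did so from 4 to 32 UMIs in a library.

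**Figure D1:**
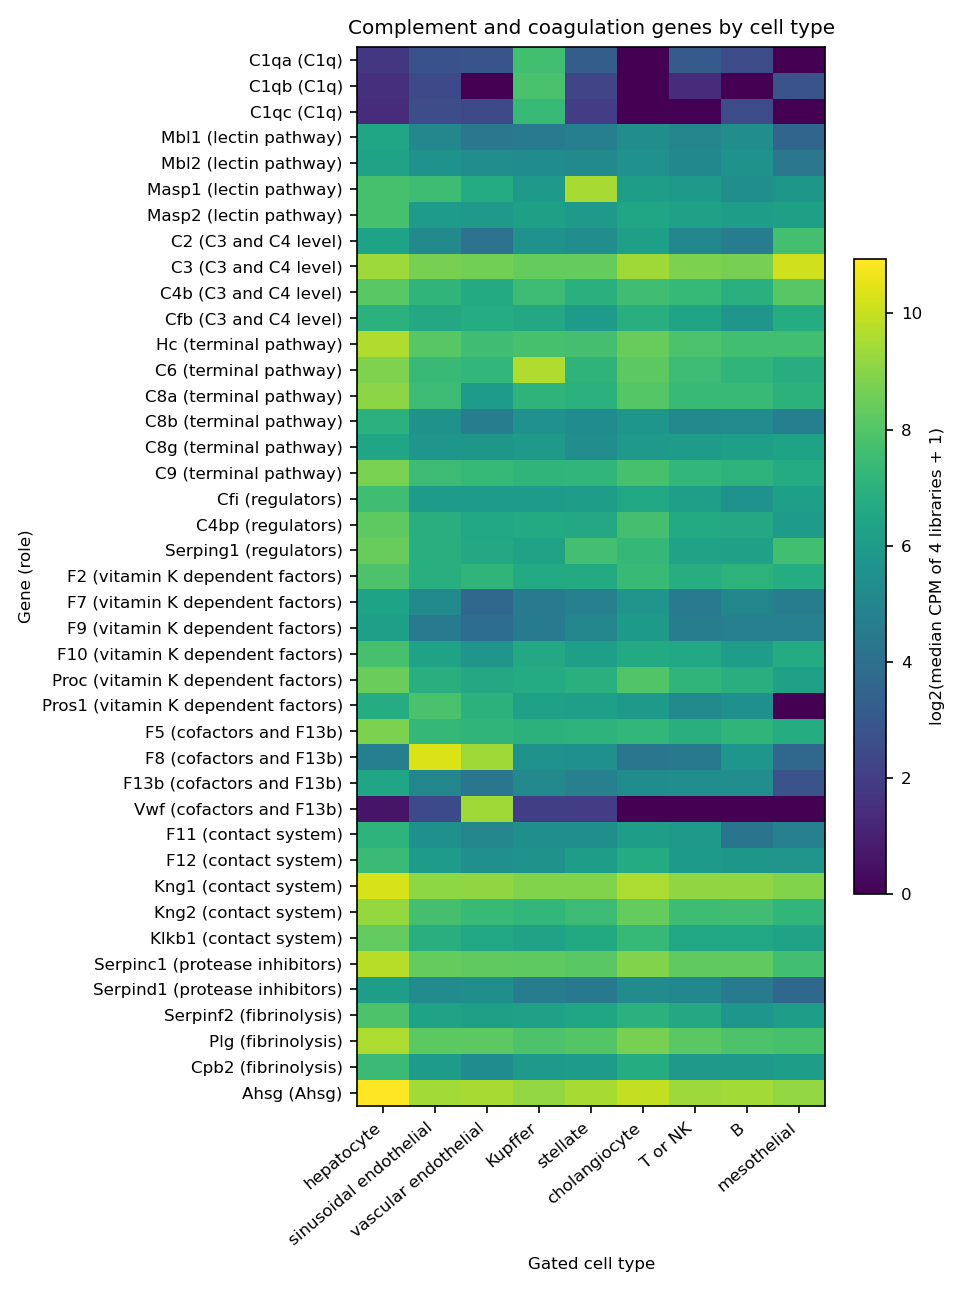
Level of each of the 41 genes in 9 cell types, as log2 of the median CPM of 4 libraries plus 1, with the genes ordered by role. Rows are to be read across, since levels of different genes are not scaled by length; most rows are brightest under hepatocyte, while C1qa, C1qb, C1qc, Masp1, C2, C3, C6, F8, Pros1 and Vwf are brightest elsewhere.

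In the test against hepatocytes (edgeR quasi-likelihood, library as a block, 7615 genes, Benjamini-Hochberg adjusted p below 0.05 and at least 2-fold), 241 of the 328 gene-by-cell-type comparisons were lower and 15 were higher than in hepatocytes. Lower calls numbered 30 of 41 genes in sinusoidal endothelial nuclei, where 18.7% of all genes were lower, 30 in vascular endothelial (18.3%), 30 in Kupffer (21.1%), 32 in stellate (17.8%), 33 in T or NK (22.5%), 33 in B (23.0%), 30 in mesothelial (18.4%) and 23 in cholangiocyte nuclei (10.6%). The median log2 difference of the 41 genes lay between -1.94 (mesothelial) and -1.05 (cholangiocyte), and that of all genes between -0.21 and 0.01. RNA of other hepatocyte genes was also counted in these nuclei. For 12 hepatocyte genes that no gate uses, such as Apoa1 and Cps1, the median ratio of the CPM in another cell type to that in hepatocytes was 0.37 to 0.72 in the library labelled CD control, 0.47 to 0.65 in CD oncogene, 0.30 to 0.48 in LPD control and 0.25 to 0.59 in LPD oncogene. The cholangiocyte gate had the highest such ratio in 2 of the libraries (0.723 and 0.593). Levels of hepatocyte genes in other cell types are therefore not read as their own expression unless they exceed this range.

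**Figure D2:**
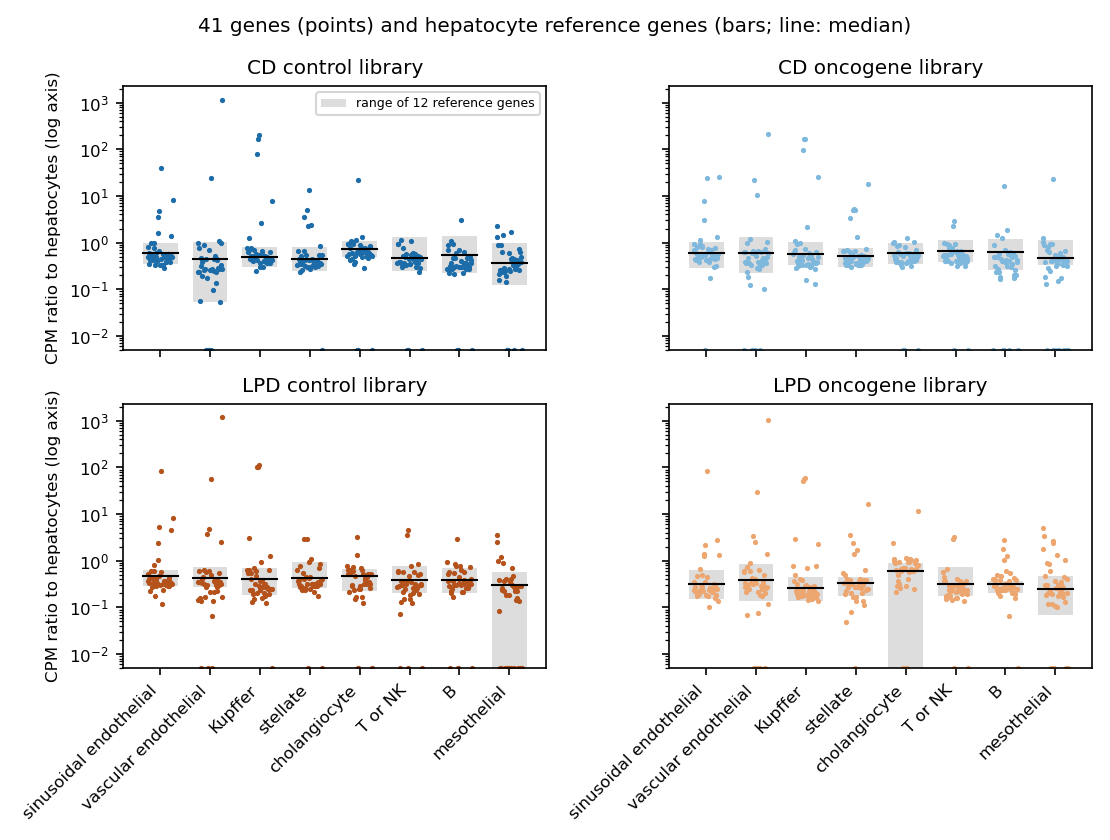
Ratio of the CPM in each cell type to the CPM in hepatocytes of the same library (log axis) for the 41 genes (points) and for 12 hepatocyte reference genes (grey bar from lowest to highest, black line at the median); ratios of 0 lie on the lower edge. Most points fall within the grey bars, and the points far above them are the C1q genes in Kupffer nuclei, F8 in endothelial nuclei and Vwf in vascular endothelial nuclei.

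Against these reference genes, 9 of the 41 genes had a ratio above every reference gene in all 4 libraries in at least 1 cell type: C1qa, C1qb, C1qc, C6, C3, Masp1, F8, Pros1 and Vwf. C2 did so in 3 of 4.

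The recognition molecule of the classical pathway was found in Kupffer nuclei, the resident macrophages of the liver. C1qa, the A chain, was at 82.8 CPM in the library labelled CD control, 138 in CD oncogene, 336 in LPD control and 258 in LPD oncogene, against 1.06 to 5.16 CPM in hepatocytes. C1qb, the B chain, was at 130, 185, 261 and 263 CPM in the same order, against 0.77 to 4.57 in hepatocytes. C1qc, the C chain, was at 104, 120, 286 and 205 CPM, against 0.52 to 3.44. Within a library the Kupffer level was 49.95 to 200.1 times the hepatocyte level, with no overlap between the cell types, and it was lower in the CD than in the LPD libraries for each chain. The log2 difference was 6.14 ± 0.24 (SE, adjusted p = 7.1e-25) for C1qa, 6.62 ± 0.33 (adjusted p = 8.8e-22) for C1qb and 6.71 ± 0.35 (adjusted p = 3.2e-19) for C1qc in edgeR, and these 3 genes were the ones called higher in Kupffer nuclei, where 22.1% of all genes were. Counts were small: 23 to 201 UMIs per chain and library. Calls of C1qa and C1qc in sinusoidal endothelial and stellate nuclei rested on 0 to 6 UMIs per library.

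C6, which binds C5b as the pore begins to form, was the terminal component whose highest level was in Kupffer nuclei in all 4 libraries. Its level there was 944 CPM (95% Poisson interval 833 to 1065) in the library labelled CD control, 602 (506 to 710) in CD oncogene, 641 (550 to 742) in LPD control and 1058 (986 to 1134) in LPD oncogene. In hepatocytes it was 750, 566, 205 and 353 CPM. Kupffer nuclei were thus higher in each library, but in CD oncogene the interval included the hepatocyte level, and the ranges of the cell types overlap across libraries. The log2 difference was 0.92 ± 0.26 (SE, edgeR adjusted p = 0.0019), under the 2-fold limit, and passed it without the library labelled CD control (1.18) or CD oncogene (1.06), with library totals (1.03) and in DESeq2 (1.09). With nuclei of at least 500 genes and at most 5% mitochondrial UMIs, or nuclei of the lower range of hepatocyte marker share, Kupffer nuclei no longer led in all 4 libraries. In the remaining 7 cell types C6 was lower than in hepatocytes by 1.08 to 2.03 on the log2 scale. The C6 level in Kupffer nuclei was 1.06 to 3.12 times that in hepatocytes, above all reference genes in every library.

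Factor VIII and von Willebrand factor, which circulate bound to each other, were found in endothelium. F8, the gene of factor VIII, was at 1259 CPM in sinusoidal endothelial nuclei of the library labelled CD control, 1032 in CD oncogene, 1286 in LPD control and 1575 in LPD oncogene. In vascular endothelial nuclei F8 was at 792, 457, 895 and 560 CPM, and in hepatocytes at 32.0, 43.1, 15.6 and 18.6 CPM. The order sinusoidal, vascular, hepatocyte was the same in all 4 libraries. F8 was higher than in hepatocytes by 5.65 ± 0.34 (SE, edgeR adjusted p = 8.5e-19) in sinusoidal and by 4.59 ± 0.35 (adjusted p = 9.2e-15) in vascular endothelial nuclei on the log2 scale, where 20% and 17.0% of all genes were called higher.
Vwf, the gene of von Willebrand factor, was at 535 CPM (95% Poisson interval 352 to 778) in vascular endothelial nuclei of the library labelled CD control, 72.2 (14.9 to 211) in CD oncogene, 796 (613 to 1016) in LPD control and 1163 (974 to 1379) in LPD oncogene. The value of CD oncogene came from 3 UMIs in 33 nuclei. Sinusoidal endothelial nuclei held 1.47 to 8.64 CPM of Vwf and hepatocytes 0.34 to 1.13, so that F8 was high in both endothelial gates and Vwf in the vascular gate. The log2 difference of Vwf to hepatocytes was 9.64 ± 0.50 in vascular endothelial nuclei (SE, edgeR adjusted p = 1.1e-17). In T or NK, B and mesothelial nuclei no Vwf UMI was counted at this depth. Calls of Vwf in sinusoidal endothelial and stellate nuclei rested on 0 to 5 UMIs per library.
Pros1, which encodes protein S, the cofactor of activated protein C, was the vitamin K dependent gene that was highest outside hepatocytes. In sinusoidal endothelial nuclei it was at 168 CPM in the library labelled CD control, 155 in CD oncogene, 312 in LPD control and 279 in LPD oncogene, against 121, 118, 68.9 and 99.1 CPM in hepatocytes. Sinusoidal levels were higher in every library and the ranges did not overlap, but in CD oncogene the 95% Poisson interval of the sinusoidal level, 109 to 215 CPM from 36 UMIs, included the hepatocyte level. The log2 difference was 1.11 ± 0.24 (SE, edgeR adjusted p = 9.4e-05), and fell to 0.75 without the library labelled LPD control and to 0.93 without LPD oncogene, below the 2-fold limit in each case.

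The lectin pathway was divided between hepatocytes and stellate nuclei, the vitamin A storing cells of the sinusoid. Masp1, a protease that lectins carry, was at 812, 648, 703 and 752 CPM in stellate nuclei of the 4 libraries. In hepatocytes it was at 227, 191, 237 and 209 CPM, a ratio of 2.96 to 3.59 within a library. The log2 difference was 1.74 ± 0.21 (SE, edgeR adjusted p = 2.4e-09), and 20.4% of all genes were called higher in stellate nuclei. Its partner protease Masp2 was highest in hepatocytes in all libraries, at 221, 216, 221 and 183 CPM, and so was Mbl1, at 89.0, 130, 46.5 and 80.6 CPM. The other mannose-binding lectin, Mbl2, was at 65.1 to 100 CPM in hepatocytes and led there in the LPD libraries only. Annotated genes on the other strand overlap Masp1, and reads of these cannot be told apart if strand was not used in counting. Of the 41 genes, 17 overlap another annotated gene. The same limit holds for those overlapped on the other strand, F8, C8a, Hc, Plg and Serpinc1 among them.

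Mesothelial nuclei, from the lining of the liver surface, held the highest levels of C3 and C2. C3, on which all complement routes act, was at 1275 CPM (95% Poisson interval 1057 to 1526) in mesothelial nuclei of the library labelled CD control, 880 (609 to 1229) in CD oncogene, 1156 (836 to 1557) in LPD control and 1091 (878 to 1342) in LPD oncogene. In hepatocytes it was at 988, 687, 323 and 598 CPM. The interval of CD oncogene included the hepatocyte level. The log2 difference was 0.73 ± 0.27 (SE, edgeR adjusted p = 0.030), under the 2-fold limit, which it passed in DESeq2 (1.04). Among nuclei of the lower range of hepatocyte marker share C3 was not highest in mesothelial nuclei in every library. C2, the protease of the classical and lectin C3 convertase, was at 193, 77.6, 215 and 291 CPM in mesothelial nuclei, from 18, 3, 8 and 24 UMIs, and at 83.9, 74.8, 86.2 and 57.1 CPM in hepatocytes. Its log2 difference of 1.34 ± 0.33 (SE, adjusted p = 8.9e-04 in edgeR) was the single call higher among the 41 genes in mesothelial nuclei, where 14.6% of all genes were higher. Without the library labelled LPD oncogene this value was 0.88 with an edgeR adjusted p of 0.074. C2 and Cfb lie 85 bases apart and share an annotated read-through gene, so that reads between them may be split.
C4b, the fourth component, followed hepatocytes in 3 libraries and reached 728 CPM in mesothelial nuclei of LPD oncogene, against 214 CPM in hepatocytes there. Reads of C4b can be split with C4a, its near copy. None of the 41 genes was called higher in cholangiocyte, T or NK or B nuclei, where 12.1%, 19.3% and 18.6% of all genes were.

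**Figure D3:**
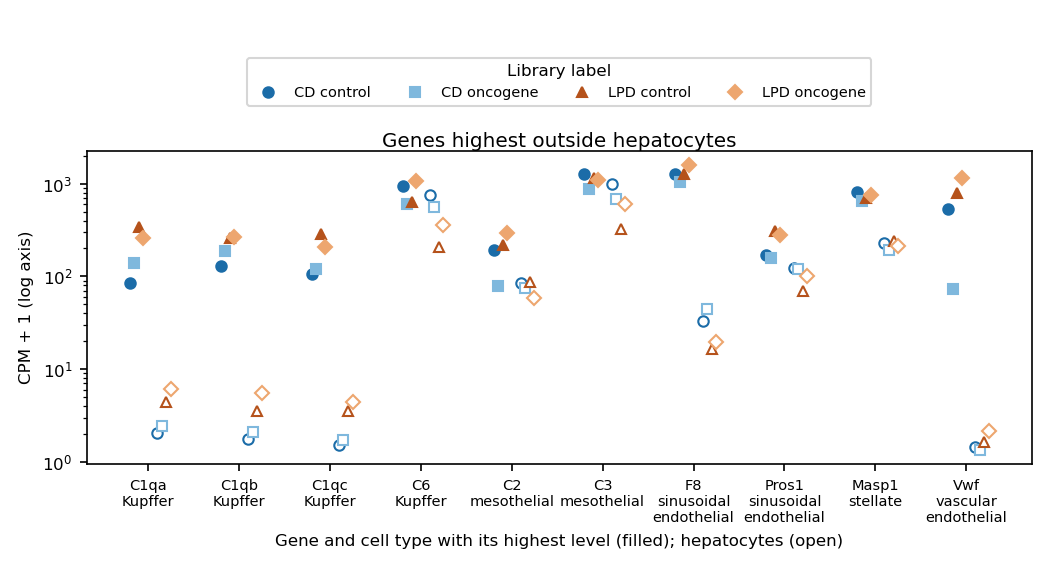
CPM plus 1 (log axis) of the 10 genes whose highest level was outside hepatocytes, in the cell type named under each gene (filled) and in hepatocytes (open), with 1 symbol per library. Filled and open symbols are far apart for C1qa, C1qb, C1qc, F8 and Vwf and close for C2, C3, C6 and Pros1, where in the library labelled CD oncogene they nearly meet for C2 and C6.

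Within hepatocytes, nuclei were ranked in each library by the share of pericentral among all zone marker UMIs and divided into a periportal, a midzonal and a pericentral tertile. Glul, a target of β-catenin, is among the pericentral markers, so that nuclei with the oncogene can rank as pericentral wherever they lie. Transgene UMIs were counted in 87, 0, 0 and 6 hepatocyte nuclei of the 4 libraries, and the part of such nuclei in the zone differences was not tested. The tertiles are ranges of a score and not types, and their limits differed: shares of 0.125 and 0.788 in the library labelled CD control, 0.0278 and 0.2 in CD oncogene, 0 and 0.154 in LPD control, and 0 and 0.286 in LPD oncogene, with 1591, 5740, 4304 and 3021 nuclei within 0.05 of a limit. Nuclei of equal share were ordered by their periportal marker level. Depth also differed: median UMIs per nucleus were 5462, 4023, 2097 and 2070.5 in the periportal and 4850, 5151, 2570.5 and 2839 in the pericentral tertiles. The UMI sums of the 11 pericentral markers rose from 0 to 176 CPM in the periportal to between 3141 and 6796 CPM in the pericentral tertiles. The 13 periportal markers fell from between 3809 and 8538 to between 344 and 3390 CPM. These markers made the tertiles. In the pericentral tertile the pericentral markers summed to 6796, 3141, 3195 and 3679 CPM and the periportal markers to 344, 2690, 3390 and 1736 CPM. In LPD control the periportal sum was thus the larger. With a common limit, a share of at least 0.667, 41.4%, 8.41%, 8.41% and 14.4% of ranked nuclei were pericentral. The pericentral tertile is therefore the most pericentral part of a library and not a fixed zone. Of the 41 genes, 40 could be tested and Vwf could not. With 13765 genes in the edgeR fit, 17 of the 40 were higher in the periportal tertile, as were 10.7% of all genes, and 4 were higher in the pericentral tertile, as were 10.3% of all genes. The median log2 difference, pericentral over periportal, was -0.20 for the 40 genes and 0.0023 for all genes. The direction was the same in all 4 libraries for 20 of the 21 called genes, and the midzonal level lay between the others in all libraries for 8 of them.

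**Figure D4:**
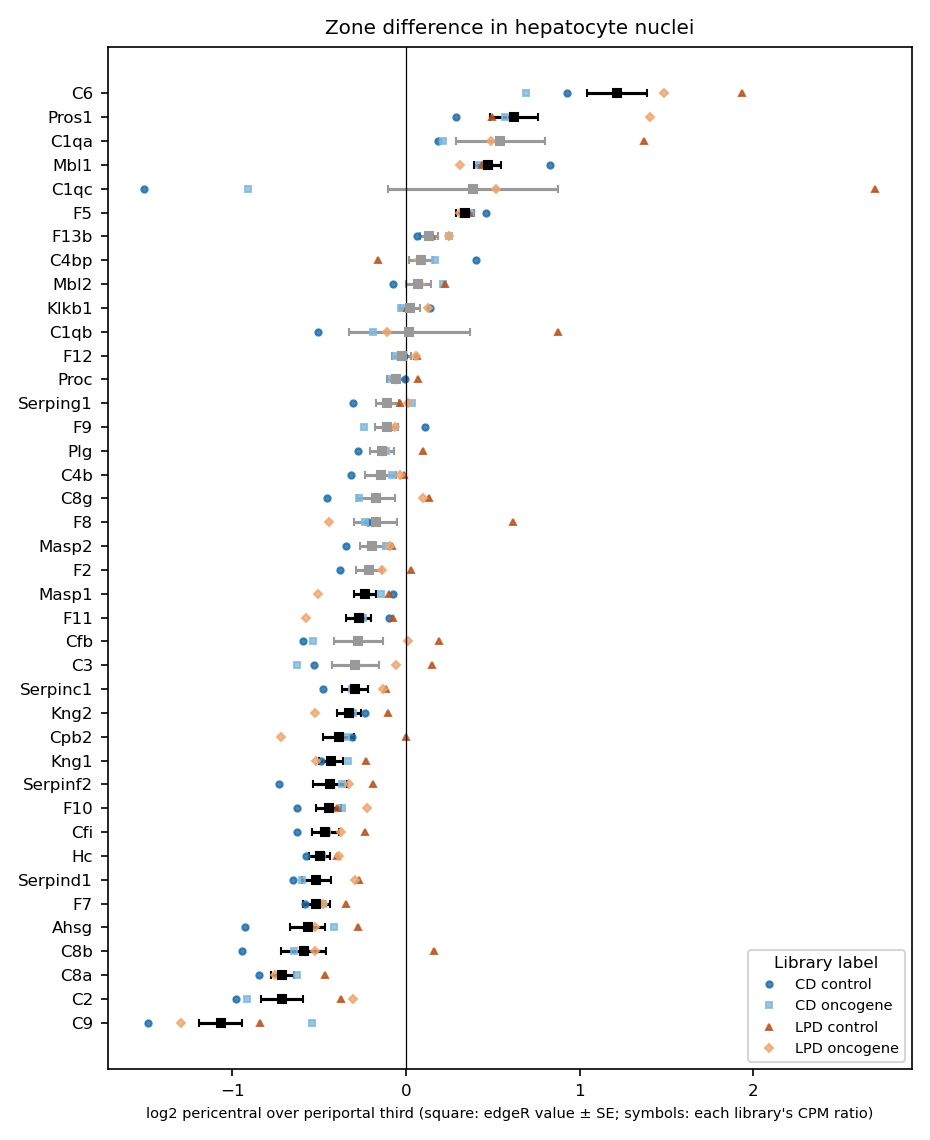
Log2 difference of the pericentral over the periportal tertile for 40 genes: squares show the edgeR value with its SE, black where the adjusted p was below 0.05, and small symbols the CPM ratio of each library. C9, C2 and C8a lie furthest to the left with all 4 libraries below 0, and C6 and Pros1 furthest to the right with all 4 libraries above 0; the C1q genes, at a few CPM in hepatocytes, scatter widely.

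The terminal pathway held the extremes in both directions. C9, which forms the wall of the pore, was at 747, 779, 301 and 383 CPM in the periportal tertile and 266, 535, 168 and 156 CPM in the pericentral tertile. It was lower in pericentral nuclei in each library, by 1.07 ± 0.12 on the log2 scale (SE, edgeR adjusted p = 7.4e-05). C6 went the other way, with 543, 453, 95.4 and 197 CPM in the periportal and 1032, 730, 365 and 553 CPM in the pericentral tertile, a difference of 1.22 ± 0.17 (SE, edgeR adjusted p = 3.0e-04). C6 was higher in pericentral nuclei in every library, and the sum of the 8 Kupffer markers was 9.21 to 27.1 CPM in the periportal and 9.20 to 33.3 CPM in the pericentral tertiles.
C8a and C8b, adjacent genes of 2 of the chains of C8, were both periportal. C8a was at 869, 803, 363 and 461 CPM in the periportal and 484, 519, 263 and 273 CPM in the pericentral tertile (log2 difference -0.71 ± 0.07, edgeR adjusted p = 1.5e-05). C8b was at 157, 244, 32.4 and 149 against 81.5, 156, 36.3 and 103 CPM (-0.59 ± 0.13, edgeR adjusted p = 0.0059), with the opposite direction in LPD control, where its level was lowest. Without the library labelled CD oncogene C8b did not pass (-0.53, edgeR adjusted p = 0.060). C8g, the remaining chain, did not pass (-0.17 ± 0.11). Hc, the gene of C5, was at 1040, 1036, 675 and 738 CPM in periportal and 698, 740, 512 and 565 CPM in pericentral nuclei (-0.50 ± 0.06, edgeR adjusted p = 1.1e-04).

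Among the other complement genes, C2 and Cfi, the protease that inactivates C3b and C4b, were periportal. C2 was at 112, 95.5, 98.9 and 63.0 CPM in the periportal and 56.9, 50.5, 76.2 and 50.9 CPM in the pericentral tertile (log2 difference -0.72 ± 0.12, edgeR adjusted p = 0.0012). Masp1 was periportal by a smaller margin (-0.24 ± 0.06, edgeR adjusted p = 0.018), which did not pass without the library labelled CD oncogene (-0.24, adjusted p = 0.071) or LPD oncogene (-0.16, adjusted p = 0.11). The sum of the 9 stellate markers was 31.3 to 129 CPM in periportal and 36.9 to 44.6 CPM in pericentral nuclei, and its part in the Masp1 difference was not tested. Mbl1 was pericentral: it was at 65.7, 115, 42.1 and 73.1 CPM in the periportal and 117, 154, 57.1 and 90.8 CPM in the pericentral tertile (0.47 ± 0.08, edgeR adjusted p = 9.0e-04). C3, C4b, Cfb, Masp2, Mbl2, C4bp and Serping1, the gene of the C1 inhibitor, did not pass the test, with differences from -0.29 to 0.09. Nor did C1qa, C1qb and C1qc, at 0.54 ± 0.25, 0.02 ± 0.35 and 0.39 ± 0.49.

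Of the clotting factors, the neighbours F7 and F10, which start the common route after tissue factor, were both periportal. F7 was at 103, 90.9, 85.8 and 54.7 CPM in the periportal and 69.0, 65.4, 67.4 and 39.2 CPM in the pericentral tertile (log2 difference -0.52 ± 0.08, edgeR adjusted p = 4.7e-04), and F10 differed by -0.45 ± 0.07. The remaining vitamin K dependent genes F2 (prothrombin), F9 and Proc (protein C) gave differences of -0.21 ± 0.08, -0.11 ± 0.07 and -0.06 ± 0.06 and did not pass, while Pros1 was pericentral. Pros1 was at 116, 99.2, 61.6 and 56.9 CPM in the periportal and 141, 147, 86.7 and 151 CPM in the pericentral tertile (0.62 ± 0.14, edgeR adjusted p = 0.0065); the sum of the 8 sinusoidal endothelial markers was 17.6 to 36.9 CPM in periportal and 34.4 to 39.9 CPM in pericentral nuclei, and its part in the Pros1 difference was not tested.
The cofactor gene F5 was also pericentral, at 335, 382, 508 and 419 CPM in the periportal and 460, 495, 651 and 519 CPM in the pericentral tertile (0.34 ± 0.05, edgeR adjusted p = 6.5e-04). F13b, the carrier subunit of factor XIII, differed by 0.13 ± 0.05 and did not pass, and neither did F8, at -0.18 ± 0.12.

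The contact system, inhibitors and fibrinolysis were periportal where they passed. Kng1 and Kng2, the kininogens, differed by -0.43 ± 0.07 and -0.33 ± 0.07, F11 by -0.27 ± 0.07, while F12 and Klkb1, the gene of prekallikrein, were at -0.02 ± 0.05 and 0.02 ± 0.06. Reads of the kininogen genes can be split between these near copies. Serpinc1 (antithrombin) and Serpind1 (heparin cofactor II) differed by -0.29 ± 0.08 and -0.52 ± 0.08. Serpinf2, the inhibitor of plasmin, and Cpb2, which slows fibrinolysis, differed by -0.44 ± 0.10 and -0.39 ± 0.09, and Plg (plasminogen) by -0.14 ± 0.07, which did not pass. Without the library labelled CD oncogene, the adjusted p in edgeR was 0.055 for Cpb2, 0.094 for Serpinc1 and 0.097 for F11; Serpinc1 also failed without CD control (0.094) and F11 without LPD oncogene (0.072). Ahsg fell from 1600, 2013, 2319 and 3327 CPM in the periportal to 842, 1511, 1916 and 2316 CPM in the pericentral tertile (-0.57 ± 0.10, edgeR adjusted p = 0.0014).

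To see how diet and injection stood beside these levels, hepatocyte levels were compared between libraries without a test, as there was 1 library per group. Of the 41 genes, 37 had at least 20 CPM in hepatocytes of some library. A gene was counted as lower on LPD when both LPD libraries were at least 1.5-fold below both CD libraries. This held for 5 of the 37 genes, C6, C8a, C9, F8 and F11, where 3.96% of 7254 genes met it. By the same rule 0 of the 37 were higher on LPD, where 11.5% of all genes were. F8 entered the 37 through the CD libraries only, at 15.6 and 18.6 CPM on LPD, so that its count as lower is tied to the filter. Over all genes the mean of the 4 pairs had a median log2 ratio of 0.21, and 0.04 after TMM scaling. The 5 genes met the rule under both scalings, and TMM scaling added Cpb2. Leaving out a library leaves 2 pairs to meet, so that counts can only stay or rise. Without the library labelled LPD oncogene 12 genes were lower, these 5 and C3, C8b, Cfi, Cpb2, Kng1, Mbl1 and Pros1, where 6.02% of all genes were. Ahsg was higher without the library labelled CD oncogene, where 16.4% of all genes were, and Ahsg and F9 were higher without LPD control, where 15.8% were.
C9 was at 557, 669, 251 and 285 CPM in hepatocytes, and the CD levels did not overlap the LPD levels. C8a was at 700, 669, 320 and 369 CPM and C6 at 750, 566, 205 and 353 CPM, so that 3 of the 6 terminal pathway genes were lower on LPD. F11, the protease of the intrinsic route, was at 203, 174, 90.7 and 70.4 CPM. F8 in hepatocytes was at 32.0, 43.1, 15.6 and 18.6 CPM, beside sums of the 8 sinusoidal endothelial markers of 41.5, 40.9, 26.6 and 36.9 CPM in the same nuclei, and their part in the F8 difference was not tested. For these 5 genes, as for all, diet cannot be told apart from depth and mitochondrial share.
Genes with the highest hepatocyte CPM of their role, not scaled by length, did not meet the rule: Hc was at 919, 904, 610 and 669 CPM, Kng1 at 1510, 1371, 697 and 1115 CPM, Plg at 761, 1051, 784 and 768 CPM, Serpinc1 at 641, 842, 1027 and 888 CPM, Proc at 370, 323, 384 and 273 CPM, F5 at 390, 426, 581 and 462 CPM and Serping1 at 299, 272, 371 and 386 CPM. Also short of the rule were C3, at 988, 687, 323 and 598 CPM, and Masp2, at 221, 216, 221 and 183 CPM. C3, Kng1 and Hc were lower and F5, Serping1 and Serpinc1 higher in both LPD libraries than in both CD libraries. Each of these differed by less than 1.5-fold in at least 1 pair. Plg, Proc and Masp2 differed by 1.5-fold or more in no pair.

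**Figure D5:**
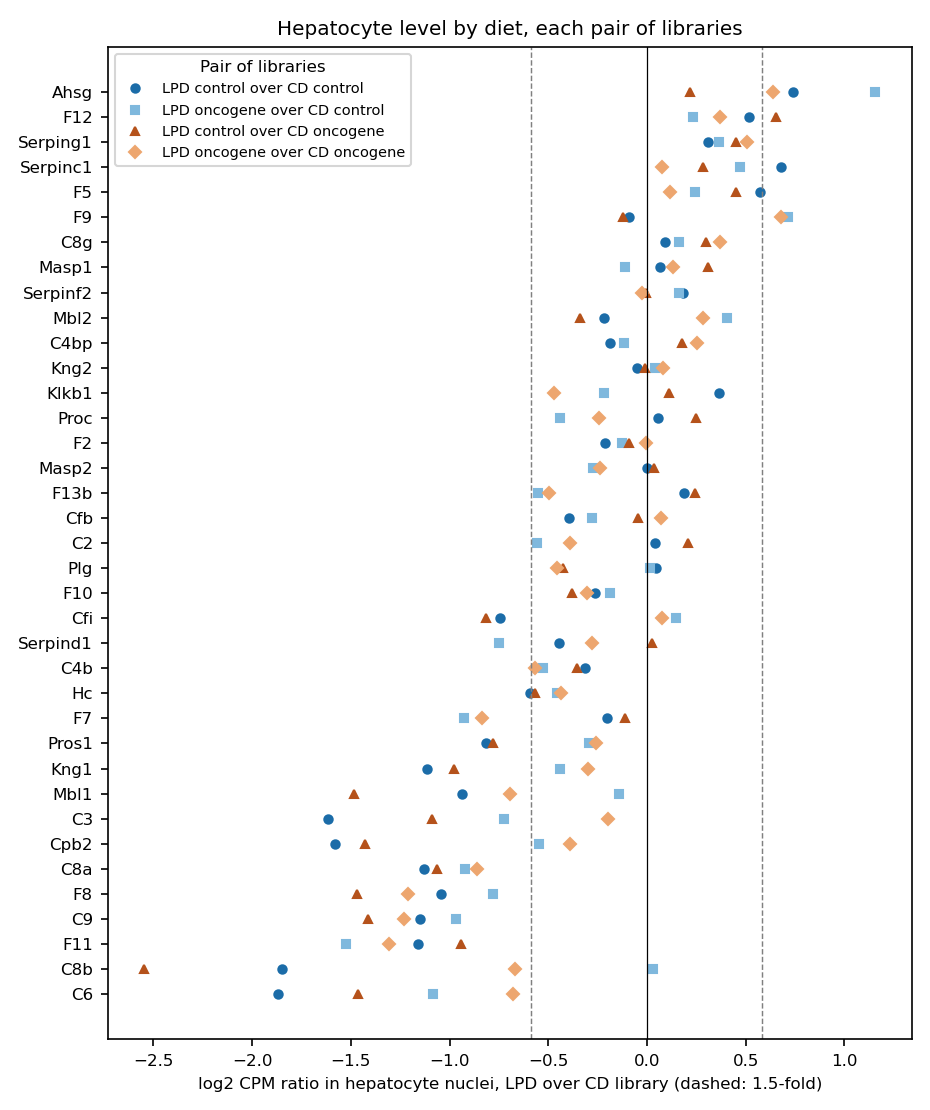
Log2 ratio of hepatocyte CPM, LPD over CD, for 37 genes with 1 symbol for each LPD library set against each CD library, and with dashed lines at 1.5-fold. All 4 symbols lie left of the left dashed line for C6, C8a, C9, F8 and F11, and no gene has all 4 symbols right of the right dashed line.

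Between the libraries labelled oncogene and control, 1 of the 37 genes was at least 1.5-fold higher and 0 were lower on CD, where 7.32% and 10.7% of all genes were. On LPD, 9 were higher and 3 lower as labelled, where 5.42% and 5.1% of all genes were. C8b was the gene higher on CD, with 126 against 205 CPM, and it was also higher on LPD, with 35.02 against 129 CPM. With the CD labels exchanged, the CD difference of C8b was -0.70 on the log2 scale, and the CD counts were 0 higher and 1 lower, where 10.7% and 7.32% of all genes were.
The 10 genes highest outside hepatocytes were compared by the same rule in the cell type of their highest level. C1qa and C1qc in Kupffer nuclei and Pros1 in sinusoidal endothelial nuclei were at least 1.5-fold higher in both LPD than in both CD libraries. By this rule 8.27% and 8.35% of all genes in these cells were higher. C1qb was higher in all 4 pairs, at less than 1.5-fold in 2 of them (log2 ratios of 0.50 and 0.51). In hepatocytes each C1q chain was also higher in both LPD than in both CD libraries, at no more than 5.16 CPM. The hepatocyte reference ratio in Kupffer nuclei was 0.48 and 0.57 in the CD and 0.41 and 0.26 in the LPD libraries. In sinusoidal endothelial nuclei this ratio was 0.60 and 0.61 in the CD and 0.48 and 0.31 in the LPD libraries. The part of this ratio in the differences was not tested. In hepatocytes Pros1 stood the other way, at 121 and 118 CPM on CD and 68.9 and 99.1 CPM on LPD. F8 in sinusoidal endothelial, Vwf in vascular endothelial, Masp1 in stellate and C2 and C3 in mesothelial nuclei were past the rule in neither direction. None of the 10 genes was lower on LPD by the rule in the cell type of its highest level. Of all genes, 8.91% were higher and 6.84% lower by it in vascular endothelial, 8.12% and 3.63% in stellate, 8.79% and 4.55% in mesothelial nuclei, and 6.79% and 5.15% were lower in Kupffer and sinusoidal endothelial nuclei. Vwf, F8 and C2 were higher in both LPD than in both CD libraries in these cells, at less than 1.5-fold in at least 1 pair.

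Another 53 genes of complement, coagulation and fibrinolysis were taken from a list, of which 30 passed the filter in the cell type fit. In stellate nuclei 7 of the 30 were higher than in hepatocytes and 14 lower, where 20.4% and 17.8% of all genes were. In sinusoidal endothelial nuclei 8 were higher and 15 lower (20% and 18.7% of all genes), and in Kupffer nuclei 8 and 14 (22.1% and 21.1%). The highest in stellate nuclei were Colec10 and Colec11, collectins of the lectin pathway, and Adamts13, the protease that trims von Willebrand factor. Colec10 was at 455 to 1190 CPM in stellate nuclei and at most 1.84 CPM in hepatocytes (log2 difference 9.24 ± 0.35, edgeR adjusted p = 1.2e-24). Colec11 was at 200 to 273 CPM (8.27 ± 0.32) and Adamts13 at 201 to 367 CPM (8.43 ± 0.31), both at no more than 1.11 CPM in hepatocytes. These stood beside Masp1 in the same nuclei. Vsig4, a receptor for C3 fragments, was at 494 to 684 CPM in Kupffer nuclei (8.11 ± 0.28), where C1q and C6 were also highest. Cr2, a complement receptor of B cells, was at 120 to 225 CPM in B nuclei (7.43 ± 0.54).
Among the called comparisons, the largest differences in favour of hepatocytes were those of Hgfac against vascular endothelial nuclei (-2.95 ± 0.40), of Crp, Tfpi2 and Proz against mesothelial nuclei (-2.63 ± 0.35, -2.62 ± 0.47 and -2.53 ± 0.50) and of Colec12 against T or NK nuclei (-2.43 ± 0.23). Proz encodes protein Z, a vitamin K dependent protein, and Crp the C-reactive protein.
Between the zones, 35 of the 53 were tested, of which 11 were periportal and 5 pericentral, where 10.7% and 10.3% of all genes were. C4a was the most periportal (-1.96 ± 0.17), followed by Hgfac (-0.64 ± 0.10), Apcs (-0.55 ± 0.12), F2r (-0.49 ± 0.16) and the fibrinogen gene Fgb (-0.44 ± 0.10). The pericentral genes included Anxa2 (1.46 ± 0.36), Colec12 (0.56 ± 0.07), Cd59a (0.47 ± 0.10) and Tfpi2 (0.29 ± 0.07). C4b, the near copy of C4a, was at -0.15 ± 0.09 and did not pass.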

How the data were processed

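Nuclei of frozen mouse liver were sequenced with the 10x 3′ v3.1 chemistry in 4 libraries. Per the file headers and labels, the authors made the deposited count matrices (UMI counts per gene and barcode) with Cell Ranger 9.0.1 on mm10, with human MET and CTNNB1 added, and used Seurat 5 afterwards. Whether introns and strand were used in counting is not given in the sources used here. The matrices held 44010 barcodes, and no column was left out.

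Nuclei with 200 to 7000 genes and at most 21% mitochondrial UMIs were kept, which are the study's limits. A nucleus was given a cell type when at least 2 different markers of that type, more than of any other type, made up at least 0.2% of its UMIs and its hepatocyte marker share was below the hepatocyte median. It was a hepatocyte with at least 6 of 8 hepatocyte markers, unless 2 markers of another type made up at least 0.1%. These gates take the place of clusters and drop many mixed nuclei. No doublet caller was run. Zone tertiles of hepatocytes with at least 3 zone marker UMIs were set within each library. Counts were summed per library and cell type, or tertile, and tested with edgeR 4.0.16 (quasi-likelihood, TMM, filterByExpr, library as a block, Benjamini-Hochberg) in R 4.3.3; DESeq2 1.42.0 was an alternative. Calls needed an adjusted p below 0.05 and, between cell types, a 2-fold difference. The fits were tested on simulated data. Values were summed with Python 3.11.15. Each group was 1 library, so diet and injection were not tested. With the library as a block, p-values measure the spread left after library and cell type, or tertile, are fitted. This spread is pooled over the cell types or tertiles of these 4 libraries. Poisson intervals (95%) cover counting error only. All 41 genes are accounted for. Values per library are given for genes highest outside hepatocytes, for the 6 largest zone differences each way, for the highest gene of each role and for those past 1.5-fold between diets; other pathway genes are named by the 5 largest differences each way, of which 1 is not reported here. The genes, lists and gates were chosen with earlier results of these data known.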

Additional observations from a re-analysis of the deposited data

Results flagged for a closer look

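C6 in Kupffer nuclei differed between the diets in its direction from control to oncogene, by the labels. On CD the level went from 944 to 602 CPM, a log2 ratio of -0.65, and on LPD from 641 to 1058 CPM, a log2 ratio of 0.72. The transgene UMIs do not match the labels on CD. With these labels exchanged the CD ratio is 0.65, the same direction as on LPD. The difference was not tested, since each value rests on 1 library per group.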

How the results depend on the processing

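Under all alternatives, calls of the 41 genes numbered 11 to 19 higher and 224 to 259 lower than hepatocytes over the 8 cell types, against 15 and 241, and 4 to 5 pericentral and 12 to 19 periportal, against 4 and 17. The 12 was without the library labelled CD oncogene. Genes highest outside hepatocytes in all libraries numbered 8 to 11, against 10. Leaving out each library in turn, an alternative chosen after seeing the data, gave 6 to 12 genes lower and 0 to 2 higher in LPD hepatocytes, against 5 and 0; it leaves 2 of the 4 pairs to meet, and 6.02% to 7.35% of all genes were then lower and 15.8% to 21.7% higher. Exchanging the CD labels turned the log2 ratio of oncogene over control on CD from -0.65 to 0.65 for C6 in Kupffer nuclei and from 0.70 to -0.70 for C8b in hepatocytes. The median ratio of the hepatocyte reference genes moved from 0.458 to 0.311 among nuclei with the lower range of hepatocyte marker share. Of the other pathway genes, 73 comparisons were higher with no filter on low counts, against 47. Thinning nuclei to 1000 UMIs left 2 pericentral and 7 periportal, against 5 and 11, and periportal calls were 7 to 13 when libraries were left out. The cause of these shifts was not tested. Over single named genes, 324 values kept their call, 19 lost it, 5 gained it, 2 moved and these 2 reversed. Cell types and tertiles were compared within libraries, with the library as a block. No paired analysis was possible because the labels give no replicate numbers that would pair libraries between diets or injections. With 3 to 201 UMIs behind the C1q, Vwf and C2 levels outside hepatocytes, depth limits these values.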
